A study of Danio rerio with 12 samples.

Results

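The interaction of exercise and Gr genotype is the difference between the response to exercise of Gr mutant zebrafish and that of wild-type zebrafish, gene by gene, in white skeletal muscle. It was computed from all 12 libraries of the series as the log2 fold change with exercise in Gr mutants minus that in wild-type fish, so that a negative value means that the change in mutants lay below the change in wild-type fish. A gene entered when 3 or more of the 12 libraries held 10 or more of its counts, which left 16056 of the 31962 genes listed. Each group held 3 libraries from 3 fish. Exercised fish swam against a flow of 0.4 m/s for 6 h a day on 5 days a week during 4 weeks, and non-exercised fish were held at 0.1 m/s. Wild-type fish were 3 months old when supplied, and the age of the Gr mutants and the sex of the fish are not given in the sources used here. The Gr mutants are of 1 line, gr-s357, with a point mutation in the part of the glucocorticoid receptor that binds DNA, and the mutation is carried in every cell. Exercised and non-exercised fish swam in separate tunnels, 1 for each group, so exercise and tunnel cannot be told apart. Both genotypes shared each tunnel, and fish were genotyped from their muscle RNA after the experiment.

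Cortisol acts on muscle mainly through the glucocorticoid receptor, a transcription factor that moves to the nucleus once it has bound the hormone. In fish and mammals, glucocorticoids raise the transcription of genes for protein breakdown, fuel switching and feedback on the receptor, lower that of many immune genes, and act on the circadian clock. Sustained swimming in fish changes the programmes for contraction, energy metabolism, matrix and growth in fast white muscle. The interaction asks of each gene whether its response to swimming had the same size in fish with and without a working receptor.

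The mutation changes a base and does not remove the transcript, so the level of nr3c1 (ENSDARG00000025032), which encodes the receptor, does not check the genotype. Its level was 38.2, 40.7 and 27.4 CPM in wild-type fish without exercise and 46.0, 59.9 and 50.7 CPM in those with exercise, and 37.1, 45.9 and 48.2 CPM without and 61.3, 46.6 and 66.9 CPM with exercise in Gr mutants (read counts scaled to library size with TMM factors, here and below). The ranges of the genotypes overlapped at both exercise levels, and the interaction was -0.14 ± 0.32 (log2 ± standard error, here and below; unadjusted p = 0.658, edgeR's quasi-likelihood test). Of the genes tested, 1.15% differed between non-exercised Gr mutants and non-exercised wild-type fish at an adjusted p under 0.05. They included 8 of the 28 glucocorticoid responsive genes tested, all lower in mutants, such as fkbp5 (ENSDARG00000028396), whose product is a chaperone partner of the receptor, at 83.1, 448 and 568 CPM in wild-type fish and 1.01, 1.62 and 1.203 CPM in Gr mutants (adjusted p = 0.00949, edgeR).

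Libraries held between 7688323 and 13894240 counts on genes. Exercised Gr mutant replicates 2 and 3 held the fewest, 7688323 and 8606580, and all others held 11076993 or more. Markers of fast muscle, 21 genes, summed to between 212550 and 470450 CPM, so that all 12 libraries carried the label's tissue. Markers of other cell types were unequal between libraries, as the plot of marker sums shows. All 16 leukocyte markers listed passed the filter, and their sum was 1784, 1648 and 294 CPM in non-exercised Gr mutants against 176 to 702 CPM in the other 9 libraries. Erythrocyte markers summed to 3129 CPM in exercised wild-type replicate 2 and to 185 to 597 CPM elsewhere. Oocyte markers summed to 297 CPM in exercised Gr mutant replicate 3 and to at most 27.9 CPM elsewhere. Exocrine pancreas markers reached 367 CPM in that library, 55.4 CPM in exercised Gr mutant replicate 1 and 32.3 CPM in non-exercised Gr mutant replicate 1, and at most 10.9 CPM elsewhere. In bulk RNA, fewer cells of a type and less RNA per cell cannot be told apart.

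**Figure D1:**
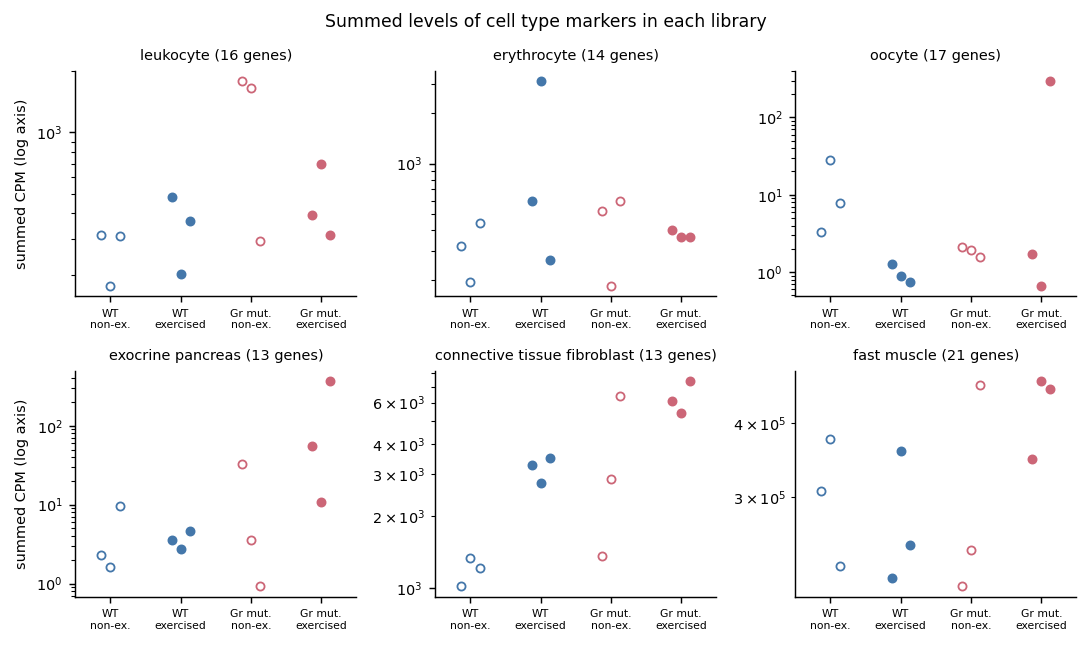
Summed CPM of the marker genes of 6 cell types (log axis) in each library, by group, with wild-type fish in blue, Gr mutants in red, non-exercised fish as open and exercised fish as filled circles. Leukocyte markers were highest in non-exercised Gr mutant replicates 1 and 2 (1784 and 1648 CPM), and oocyte markers in exercised Gr mutant replicate 3 (297 CPM).

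No gene passed an adjusted p of 0.05 for the interaction in edgeR's quasi-likelihood test, 0 of 16056 (0.0%), and the lowest adjusted p was 0.49. At an unadjusted p under 0.05 there were 1347 genes, 532 with a positive interaction (3.31% of the genes tested) and 815 with a negative one (5.08%). Over all genes, 8386 (52.2%) had a value below 0 and the median was -0.03, with median responses of 0.03 in wild-type fish and -0.03 in Gr mutants. DESeq2's Wald test called 32 of the 15688 genes to which it gave an adjusted p (0.204%), of which 22 were positive, 15 had a mean of 100 or more counts and 6 had over 50% of their scaled counts in 1 library. All 32 had an unadjusted p under 0.05 in edgeR.

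The wild-type and mutant responses come from separate fish, so they can be set against each other. Across the 5433 genes with a mean of 100 or more counts, Pearson's r between both responses was 0.204 and Spearman's rho 0.288. Over all 16056 genes these were -0.0495 and 0.146. Both are a description over genes, which are not independent of each other. In 95 genes (0.592%) both genotypes had exercise groups without overlap that moved in opposite directions, 44 higher in exercised wild-type fish and lower in exercised mutants and 51 the other way. In 538 genes (3.35%) such groups moved in the same direction, 308 up and 230 down. Genes with non-overlapping groups in the same direction were thus more numerous than those with opposite directions.

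**Figure D2:**
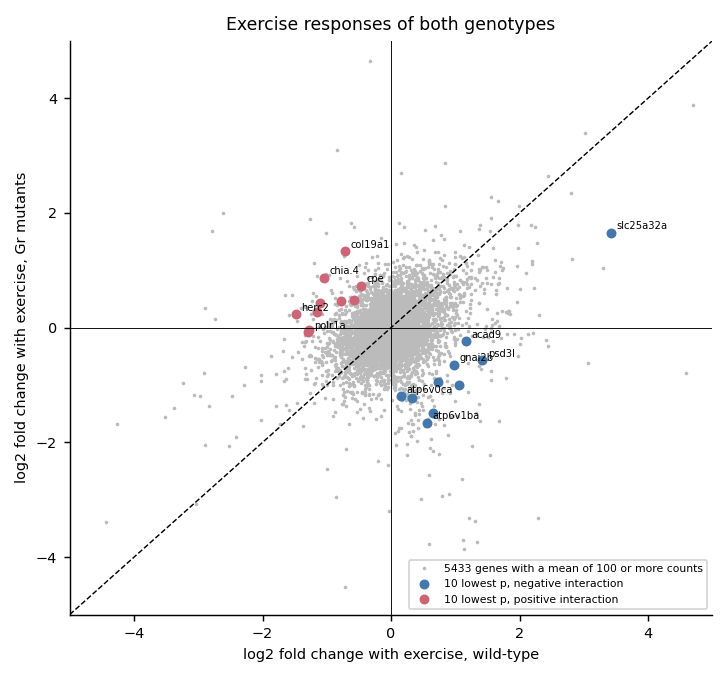
Log2 fold change with exercise in wild-type fish (horizontal) and in Gr mutants (vertical) for 5433 genes with a mean of 100 or more counts, 8 of which lie outside the axes. The dashed line marks equal responses, and the coloured points are the 10 genes of each sign with the lowest interaction p, below the line for negative and above it for positive interactions.

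The interaction was measured with a median standard error of 0.50 over all genes and 0.39 over genes with a mean of 100 or more counts. The 95% interval lay within 1 log2 unit of 0 in 2602 genes (16.2%), and in 1674 of the 5433 better counted genes (30.8%). For the remaining genes, a response that differed between the genotypes by 1 log2 unit or more was within the interval, so equal responses were not shown for them.

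Among the 10 genes with the lowest p and a negative interaction, 5 were higher with exercise in wild-type fish and lower in mutants, with groups that did not overlap. Choosing genes by a low p and this sign favours such a pattern, which in either direction was seen in 0.592% of all genes. The first of the 10 was gnai2b (ENSDARG00000017294), an alpha subunit of inhibitory G proteins. It was at 7.76, 7.72 and 11.8 CPM in wild-type fish without exercise and 17.4, 19.1 and 17.4 CPM in those with exercise, and at 12.02, 12.1 and 12.03 CPM without and 7.35, 7.10 and 8.61 CPM with exercise in Gr mutants. Exercised wild-type fish were thus the highest group and exercised mutants lay at the level of the non-exercised wild-type fish. The interaction was -1.63 ± 0.29 (95% interval -2.25 to -1.001, unadjusted p = 9.65e-05 and adjusted p = 0.49, edgeR), the same adjusted p as for all 20 genes in these 2 sets.

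Expression of acad9 (ENSDARG00000055620), an acyl-CoA dehydrogenase that is also an assembly factor of respiratory complex I, was 9.55, 10.6 and 12.2 CPM in wild-type fish without exercise and 27.2, 23.9 and 21.8 CPM in those with exercise. This rise passed the threshold in wild-type fish (log2 fold change 1.17 ± 0.19, adjusted p = 0.0426, edgeR). In Gr mutants it was 7.34, 6.78 and 8.51 CPM without and 6.77, 5.78 and 6.53 CPM with exercise. All 6 mutant libraries lay below all 6 wild-type libraries, and the interaction was -1.41 ± 0.27 (unadjusted p = 0.000175, edgeR).

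A pair of subunits of the vacuolar proton pump, which acidifies lysosomes, followed. The membrane subunit gene atp6v0ca (ENSDARG00000057853) was at 18.6, 16.0 and 18.4 CPM in wild-type fish without exercise and 20.6, 18.9 and 19.4 CPM in those with exercise, against 30.0, 37.7 and 24.9 CPM without and 13.5, 11.23 and 15.6 CPM with exercise in Gr mutants. The wild-type groups were close to each other, and the mutants ran from the highest level at rest to the lowest with exercise (interaction -1.35 ± 0.29, unadjusted p = 0.000483, edgeR). The gene of the catalytic head's B subunit, atp6v1ba, was at 7.25, 8.13 and 9.22 CPM without and 9.08, 11.9 and 15.3 CPM with exercise in wild-type fish and at 13.8, 25.6 and 9.90 CPM without and 5.94, 4.13 and 5.42 CPM with exercise in Gr mutants, with an interaction of -2.22 ± 0.47.

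In srgn, the gene of serglycin, a proteoglycan of blood cell granules, and tspan36, a tetraspanin, non-exercised mutants also stood apart above the other groups. Levels of srgn were 71.9, 54.1 and 35.3 CPM in non-exercised mutants and between 18.3 and 33.7 CPM in the other 9 libraries. Levels of tspan36 were 23.8, 30.6 and 24.1 CPM there and between 4.94 and 15.8 CPM elsewhere. The interactions were -1.55 ± 0.38 and -2.14 ± 0.51. Without non-exercised mutant replicates 1 and 2, the libraries with the most leukocyte markers, a choice made after seeing the data, they were -0.95 and -2.03.

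In the other leading genes with a negative interaction, non-exercised mutants did not stand apart. SOCS3 (3 of 3) (ENSDARG00000104400), a copy of the suppressor of cytokine signalling 3, was at 14.7, 6.59 and 10.2 CPM in wild-type fish without exercise and 16.8, 16.6 and 18.9 CPM in those with exercise, and at 5.27, 5.68 and 4.63 CPM without and 3.22, 1.65 and 3.06 CPM with exercise in Gr mutants (interaction -1.68 ± 0.42). Its level and that of socs3a, with an interaction of -1.44 ± 0.46, are uncertain in so far as reads from similar copies could be split between them. The gene slc25a32a, a mitochondrial carrier of folate and FAD, was at 3.92, 2.27 and 1.66 CPM without and 27.9, 17.8 and 38.3 CPM with exercise in wild-type fish and at 6.28, 4.58 and 5.00 CPM without and 15.6, 17.3 and 16.9 CPM with exercise in Gr mutants. It rose with exercise in wild-type fish (log2 fold change 3.43 ± 0.35, adjusted p = 0.00295, edgeR), had a value of 1.65 ± 0.33 in mutants, and an interaction of -1.78 ± 0.46. The other genes of this set were tnfrsf1b, a receptor of tumour necrosis factor (-2.05 ± 0.54), and psd3l (-1.99 ± 0.51).

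**Figure D3:**
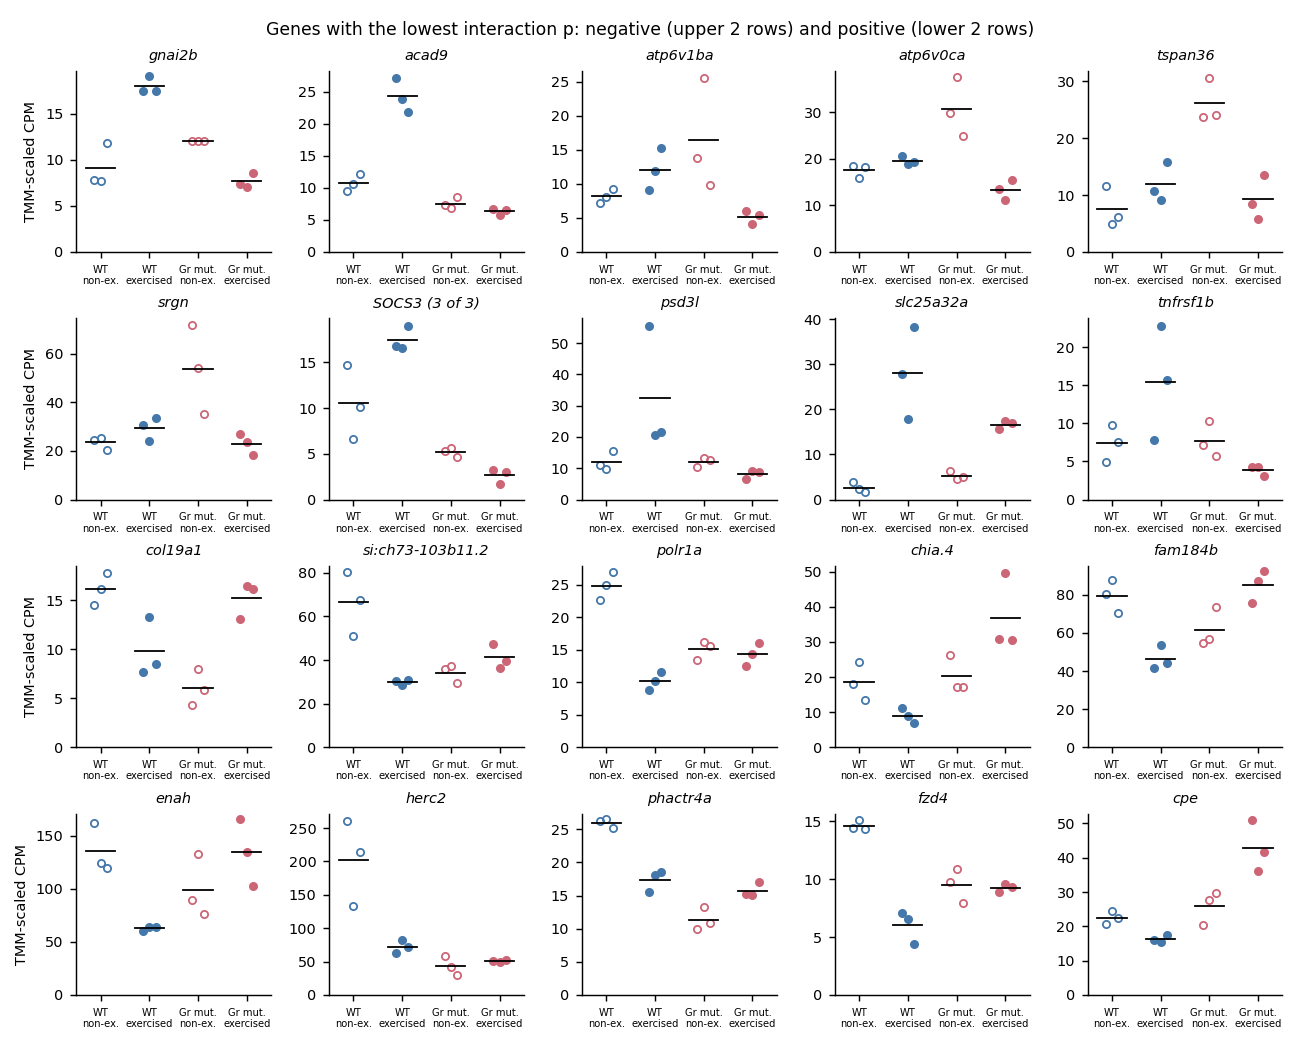
TMM-scaled CPM of the 20 genes with the lowest interaction p, with at least 100 mean counts and no library over 50% of the counts, in each library (circles, filled for exercised fish) with the group mean (line); every axis starts at 0. Exercised wild-type fish are highest in gnai2b and acad9 and lowest in polr1a, while non-exercised Gr mutants are highest in atp6v0ca, tspan36 and srgn.

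Among the 10 leading genes with a positive interaction, all had a lower mean in exercised than in non-exercised wild-type fish. Choosing genes by a low p and a positive sign favours this, so it is not a separate result. Expression of col19a1 (ENSDARG00000096073), a collagen of basement membrane zones, was 14.5, 16.2 and 17.8 CPM in wild-type fish without exercise and 7.73, 13.3 and 8.49 CPM in those with exercise, and 4.26, 8.00 and 5.83 CPM without and 13.1, 16.5 and 16.1 CPM with exercise in Gr mutants. Exercised mutants thus lay where non-exercised wild-type fish did, with no overlap between exercise levels in either genotype (interaction 2.05 ± 0.38, unadjusted p = 0.000152, edgeR). A second gene model of that symbol (ENSDARG00000076163), looked at after its values were seen, had an interaction of 1.01 ± 0.47 (unadjusted p = 0.05, edgeR).

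Expression of polr1a (ENSDARG00000098375), the largest subunit of RNA polymerase I, which transcribes ribosomal RNA, was 22.6, 25.0 and 27.0 CPM in wild-type fish without exercise and 8.87, 10.2 and 11.5 CPM in those with exercise. This fall passed the threshold (log2 fold change -1.29 ± 0.19, adjusted p = 0.0291, edgeR). The mutant levels were 13.4, 16.2 and 15.6 CPM without and 12.5, 14.4 and 16.0 CPM with exercise, which overlapped and lay between the wild-type groups (interaction 1.202 ± 0.27, unadjusted p = 0.000642). The Wnt receptor gene fzd4 had the same order, at 14.4, 15.1 and 14.3 CPM without and 7.09, 6.52 and 4.44 CPM with exercise in wild-type fish (adjusted p for the fall 0.047, edgeR) and 9.77, 10.8 and 7.96 CPM without and 8.92, 9.58 and 9.31 CPM with exercise in mutants.

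Both enah, a regulator of actin filaments, and herc2, a ubiquitin ligase, were lower in exercised than in non-exercised wild-type fish without overlap. Levels of enah were 162, 124 and 119 CPM without and 60.1, 63.9 and 64.0 CPM with exercise in wild-type fish and 88.9, 132 and 76.1 CPM without and 166, 134 and 103 CPM with exercise in Gr mutants (interaction 1.55 ± 0.37). Levels of herc2 were 260, 133 and 214 CPM without and 62.8, 82.8 and 71.8 CPM with exercise in wild-type fish and 58.1, 42.4 and 30.0 CPM without and 51.4, 49.4 and 52.4 CPM with exercise in Gr mutants (interaction 1.71 ± 0.41). For herc2 all 6 mutant libraries lay below all 6 wild-type libraries. In chia.4, an acidic chitinase, and cpe, the carboxypeptidase E that trims prohormones, exercised mutants were the highest group, at 30.8, 49.5 and 30.6 CPM and 51.1, 36.2 and 41.7 CPM against at most 26.3 and 29.8 CPM in the other groups. Their interactions were 1.91 ± 0.43 and 1.198 ± 0.29. The rest of this set were si:ch73-103b11.2 (1.42 ± 0.30), fam184b (1.25 ± 0.29) and phactr4a, which binds actin and protein phosphatase 1 (1.05 ± 0.25).

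Of the 15 genes with a mean of 100 or more counts that DESeq2 called, 12 are among these 20. The others were GSTK1 (1 of 4), TMEM233 and f13a1a.1. GSTK1 (1 of 4), a copy of a glutathione transferase whose reads may be shared with its other copies, was at 99.7, 29.4 and 39.4 CPM without and 4.96, 13.3 and 7.07 CPM with exercise in wild-type fish and at 44.0, 43.7 and 41.0 CPM without and 23.6, 47.7 and 71.0 CPM with exercise in Gr mutants (edgeR's interaction 2.88 ± 0.71). Levels of TMEM233 were 21.5, 21.0 and 6.24 CPM without and 2.34, 1.46 and 2.63 CPM with exercise in wild-type fish and 14.3, 5.97 and 2.68 CPM without and 11.8, 6.44 and 10.8 CPM with exercise in Gr mutants. The coagulation factor XIII gene f13a1a.1 was at 0.341, 56.3 and 0.119 CPM without and 0.355, 0.0974 and 0.0752 CPM with exercise in wild-type fish and at 44.8, 8.17 and 0 CPM without and 443, 392 and 358 CPM with exercise in Gr mutants. It was high in all 3 exercised mutants, and 1 non-exercised wild-type library and 2 non-exercised mutants also reached 8.17 CPM or more.

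The genes at an unadjusted p under 0.05 did not take their sign from the same group. For each gene, the group whose mean log2 level lay farthest from the mean of the other 3 was recorded. Among the 815 genes with a negative interaction, non-exercised Gr mutants stood farthest apart in 392 (48.1%), against 29.8% over all genes with a value below 0. Among the 532 with a positive interaction, exercised Gr mutants stood farthest apart in 172 (32.3%), against 28.0% over all genes with a value above 0. Whether a group stood apart as higher or lower was largely set by the sign of the interaction, so it is not a separate result. Of the 815, 291 kept an unadjusted p under 0.05 whichever library was left out, and 270 did without non-exercised mutant replicates 1 and 2. Of the 532, these numbers were 190 and 305.

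Genes of energy metabolism had mostly negative values. The nuclear-encoded respiratory chain, which passes electrons from fuel to oxygen and makes ATP in mitochondria, had 81 genes tested, of which 77 had an interaction below 0. None had an adjusted p under 0.05, and 7 (8.64%) had a negative and 0 a positive interaction at an unadjusted p under 0.05, against 8.39% of all genes in either direction, the share to read the counts of the other lists against. The median interaction was -0.60, against -0.03 over all genes, with a median response of 0.35 in wild-type fish, where 71 of 81 had a higher fitted value with exercise, and of -0.23 in Gr mutants, where 9 did. By complex, values below 0 were found in 35 of 35 genes of complex I, 4 of 4 of complex II, 7 of 8 of complex III, 16 of 18 of complex IV and 15 of 16 of the ATP synthase.

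The summed level of the 81 genes was 12750, 14130 and 14490 CPM in non-exercised and 18830, 18390 and 15530 CPM in exercised wild-type fish. In Gr mutants it was 9523, 7188 and 14420 CPM in non-exercised and 9703, 9953 and 6440 CPM in exercised fish. These sums depend on the TMM factors. With them, the total over all genes tested ran from 715500 CPM in non-exercised mutant replicate 1 to 1284000 CPM in replicate 3. The order of libraries under scaling to plain totals was not tested. On the TMM scale the exercised wild-type libraries lay above all others. Non-exercised mutant replicate 3 lay at the wild-type level, above the other 2 of its group. The value depended on that library: the median interaction was -0.30 without it and -1.05 without replicates 1 and 2 of that group, when 62 of the 81 genes had a negative interaction at an unadjusted p under 0.05. With 1 library left out, this number was between 1 (without non-exercised wild-type replicate 1) and 32.

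The 7 genes at an unadjusted p under 0.05 were uqcrh and uqcrfs1 of complex III, ndufs8a, ndufs6 and ndufa1 of complex I, and cox6a1 and cox7a2a of complex IV, with interactions between -0.98 and -0.68. All but uqcrh passed 0.05 in only 4 to 6 of the 12 fits with 1 library left out. Without non-exercised mutant replicates 1 and 2, cox6a1 was at -0.20 (unadjusted p = 0.596, edgeR). Expression of uqcrh (ENSDARG00000059128) was 90.4, 90.7 and 102 CPM without and 168, 161 and 139 CPM with exercise in wild-type fish and 57.4, 51.0 and 84.0 CPM without and 62.8, 58.1 and 40.4 CPM with exercise in Gr mutants. In wild-type fish the exercised libraries lay above the non-exercised ones, and in mutants both groups overlapped (interaction -0.98 ± 0.35, unadjusted p = 0.0149, edgeR).

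Of 34 genes of fatty acid oxidation and synthesis tested, 24 had a value below 0, 5 with an unadjusted p under 0.05 and a negative sign, and 0 with a positive one. The median interaction was -0.45, and between -0.63 and -0.25 with any 1 library left out. The 5 genes included acsl1b, which activates fatty acids with coenzyme A (-0.76 ± 0.27). The outer and inner carnitine palmitoyltransferases cpt1ab and cpt2, which carry fatty acids into mitochondria, had values of -0.78 ± 0.31 and -1.07 ± 0.35. The beta-oxidation enzymes hadh and acaa2 had -0.93 ± 0.38 and -0.72 ± 0.33. Of the 12 fits with 1 library left out, cpt1ab passed 0.05 in 8, hadh in 7 and acaa2 in 4. In the same list, 10 genes had a value above 0. Levels of acsl1b were 109, 127 and 134 CPM without and 201, 203 and 194 CPM with exercise in wild-type fish and 54.5, 66.1 and 64.9 CPM without and 61.7, 56.0 and 59.7 CPM with exercise in Gr mutants. The exercised wild-type libraries were likewise the highest in got1, a cytosolic aminotransferase, at 136, 171 and 146 CPM without and 383, 399 and 351 CPM with exercise in wild-type fish and 71.1, 91.1 and 140 CPM without and 117, 100 and 61.0 CPM with exercise in Gr mutants (interaction -1.44 ± 0.42).

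Glycolysis and glycogen genes had a median of -0.33, with 2 of 31 at an unadjusted p under 0.05, both negative, and a median of 0.20 without non-exercised mutant replicate 3. The mitochondrial chaperone genes hspa9 and hspe1 had interactions of -0.95 ± 0.33 and -0.82 ± 0.33. They were the 2 of 33 heat shock proteins and chaperones (6.06%, against 8.39% of all genes in either direction) at an unadjusted p under 0.05, in a list with a median of -0.38. Proteasome subunits had 44 of 52 values below 0 and a median of -0.24, which was 0.09 without non-exercised mutant replicate 1.

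**Figure D4:**
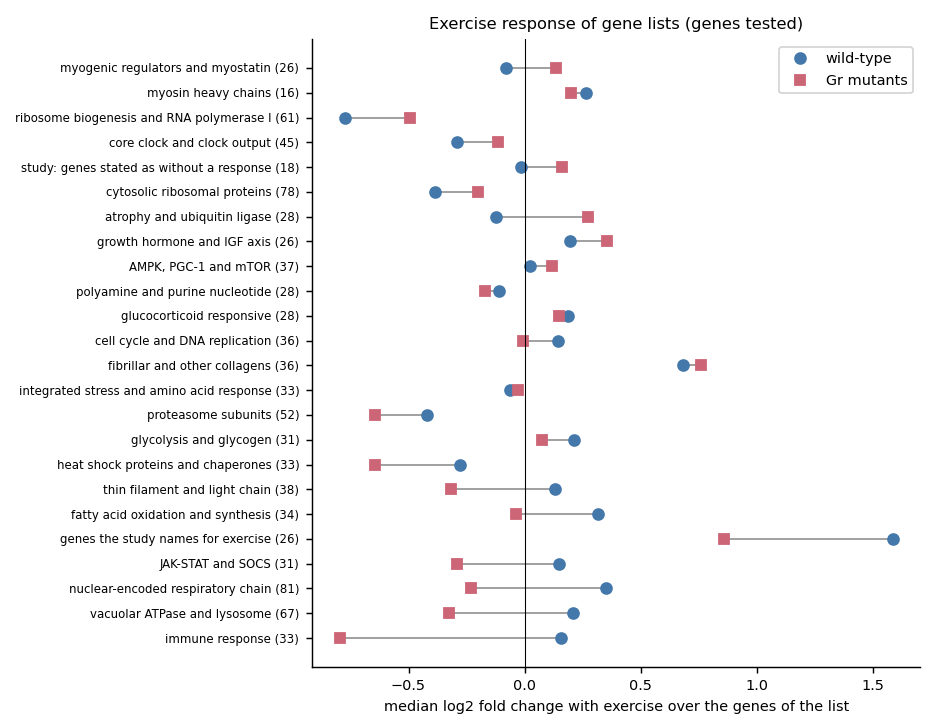
Median log2 fold change with exercise over the genes of each list in wild-type fish (circles) and Gr mutants (squares), ordered by the median interaction, with the number of genes tested in brackets. The medians lay on opposite sides of 0 for the nuclear-encoded respiratory chain (0.35 and -0.23) and the vacuolar ATPase and lysosome list (0.21 and -0.33), and on the same side for the collagens (0.68 and 0.76). These differences depended on the non-exercised mutant group. Without its replicate 3, the median interaction was -0.30 for the respiratory chain and 0.31 for the collagens. Without its replicates 1 and 2, it was -1.05 and -0.41, and -0.23 for the lysosomal list.

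After a pair of leading genes proved to be subunits of the vacuolar proton pump, a list of the pump and of lysosomal proteins was added, so it was chosen after values were seen and its counts are a description. These counts include the leading genes atp6v0ca and atp6v1ba. Of 67 genes tested, 54 had a value below 0, and the median was -0.62. At an unadjusted p under 0.05, 16 had a negative interaction (23.9%, against 5.08% of all genes) and 1 a positive one. Pump subunits had values below 0 in 21 of 22, and the other lysosomal genes in 33 of 45. The summed level of the pump subunits was 212, 212 and 222 CPM without and 219, 256 and 242 CPM with exercise in wild-type fish and 234, 301 and 236 CPM without and 196, 167 and 168 CPM with exercise in Gr mutants, so that exercised mutants were the lowest group. The cathepsins, the proteases of the lysosome, summed to 447, 314 and 525 CPM without and 456, 572 and 582 CPM with exercise in wild-type fish, where all 11 had a higher fitted level with exercise. In mutants they summed to 641, 591 and 287 CPM without and 315, 322 and 265 CPM with exercise.

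Leukocyte markers moved with part of these lysosomal values. All 16 leukocyte markers had a negative interaction, 7 with an unadjusted p under 0.05, and the cathepsin sum was 641 and 591 CPM in the libraries richest in them, non-exercised mutant replicates 1 and 2. In exercised wild-type fish the cathepsin sum was 456, 572 and 582 CPM, and leukocyte markers summed to 480, 201 and 365 CPM. The genes of this list other than the leading ones were named after their values were seen. Without both libraries, the median of the lysosomal list was -0.23, 4 genes had a negative interaction at an unadjusted p under 0.05, and the median of the leukocyte markers was 0.27. Interactions of atp6v0ca and atp6v1ba were then -1.05 (unadjusted p = 0.00496, edgeR) and -1.48, that of atp6v1g1, another pump subunit, went from -0.94 to -1.18, and that of the cathepsin gene ctsba from -1.19 to -0.06. The part of leukocyte RNA in these values was not tested further.

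Immune response genes had the lowest median of the pathway lists, -1.003, with 27 of 33 values below 0 and 9 negative interactions at an unadjusted p under 0.05. Without non-exercised mutant replicates 1 and 2 the median was -0.22 and the number of such genes 3. Genes with many reads differed from fish to fish. The class I antigen presentation gene mhc1uba was at 5.03, 1.75 and 23.7 CPM without and 268, 189 and 287 CPM with exercise in wild-type fish and at 500, 39.4 and 295 CPM without and 5.28, 282 and 194 CPM with exercise in Gr mutants, with exercised above non-exercised wild-type fish and mutant groups that overlapped. The class II gene mhc2dab was between 1.13 and 83.6 CPM in wild-type fish, at 8.35, 11.0 and 23.3 CPM in non-exercised and at 0.991, 2.48 and 0.972 CPM in exercised mutants. Both belong to families of similar genes that differ between individual fish, so their counts are uncertain. The leukocyte genes coro1a, lcp1, marco and irf8, of actin dynamics, phagocytosis and macrophage identity, had interactions between -3.49 and -2.03 with all libraries and between -0.95 and -0.02 without the pair. The neutrophil peroxidase gene mpx was at 69.9 CPM in non-exercised mutant replicate 1 and at no more than 3.83 CPM in the other 11 libraries.

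Signalling by cytokines through JAK and STAT proteins, which SOCS proteins limit, had 31 genes tested, 20 with a value below 0, 3 with a negative and 2 with a positive interaction at an unadjusted p under 0.05, and a median of -0.54 (0.05 without the 2 leukocyte-rich libraries). The negative ones were il6r and jak3, a receptor and a kinase (-2.79 ± 0.77 and -1.78 ± 0.81), and socs3a. The copy SOCS3 (3 of 3), with an interaction of -1.68 ± 0.42, was not in this list. The positive ones were the feedback inhibitors cishb (1.86 ± 0.59) and socs5a (0.93 ± 0.41). Without these libraries jak3 had an interaction of 0.01, and socs3a one of -1.50.

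A list of ribosome biogenesis and RNA polymerase I genes was added because polr1a was among the leading genes. It was thus chosen after values were seen, and its counts, which include polr1a, are a description. Of 61 genes tested, 14 had a value below 0. At an unadjusted p under 0.05 there were 4 positive and 0 negative interactions (6.56%, against 8.39% of all genes in either direction). The median was 0.30 (from 0.14 to 0.42 when a single library was dropped). The median response was -0.77 in wild-type fish and -0.49 in Gr mutants, and only 3 and 4 genes had a higher fitted level with exercise. Summed levels were 970, 932 and 998 CPM without and 481, 608 and 629 CPM with exercise in wild-type fish and 1031, 883 and 1002 CPM without and 631, 837 and 793 CPM with exercise in Gr mutants. Both genotypes were thus lower with exercise, and wild-type fish reached the lowest levels.

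Besides polr1a, the genes with a positive interaction were heatr1 and pdcd11, which process the precursor of ribosomal RNA, and polr1e, another subunit of the polymerase, named after their values were seen. In wild-type fish, heatr1 and pdcd11 fell with exercise (log2 fold change -1.33 ± 0.22 and -1.25 ± 0.21, adjusted p = 0.047 and 0.0493, edgeR), and values in mutants were -0.13 ± 0.22 and -0.49 ± 0.21. Cytosolic ribosomal proteins, 78 genes, had a median interaction of 0.17, 11 values below 0 and 0 genes at an unadjusted p under 0.05 in either direction. Their median was -0.27 without non-exercised mutant replicates 1 and 2.

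Genes called for exercise made up 40 of all genes tested (0.249%) at an adjusted p under 0.05 in wild-type fish and 6 (0.0374%) in Gr mutants, and several were clock genes. The circadian clock is a loop in which arntl1a with its clock partner activates per and cry genes, whose proteins repress it, while ror and nr1d receptors act on arntl1a itself. Of 45 clock and clock output genes tested, 7 passed in wild-type fish and 1 in mutants, and 7 had an interaction at an unadjusted p under 0.05, 4 positive and 3 negative. In wild-type fish the fitted response was below 0 in the positive ones, cry1a, cry3, cry5 and hlfa, and above 0 in the negative ones, arntl1a, nfil3-2 and rorcb. In all 7 the wild-type response was the larger, and that of cry1a in mutants was -0.03 ± 0.22.

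Expression of arntl1a (ENSDARG00000006791) was 0.511, 0.618 and 0.416 CPM in wild-type fish without exercise and 4.54, 5.26 and 3.53 CPM in those with exercise, a rise past the threshold (log2 fold change 3.11 ± 0.42, adjusted p = 0.0163, edgeR). In mutants it was 1.42, 3.54 and 3.89 CPM without and 3.63, 4.79 and 5.97 CPM with exercise. Exercised fish of both genotypes had similar levels, and non-exercised mutants were already above non-exercised wild-type fish (interaction -2.41 ± 0.55, unadjusted p = 0.000859, edgeR). The transcription factor gene hlfa showed the mirror image, at 59.08, 48.3 and 54.6 CPM without and 15.7, 18.98 and 9.77 CPM with exercise in wild-type fish and 23.4, 20.6 and 16.1 CPM without and 12.9, 14.4 and 15.4 CPM with exercise in Gr mutants (interaction 1.37 ± 0.35).

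Expression of rorcb was 0.767, 1.13 and 0.773 CPM without and 49.6, 34.1 and 46.2 CPM with exercise in wild-type fish and 2.19, 4.17 and 8.33 CPM without and 24.9, 85.4 and 105 CPM with exercise in Gr mutants, and it rose in both genotypes (adjusted p = 0.00556 and 0.0385, edgeR; interaction -1.72 ± 0.77). For nr1d1, which encodes a repressor of arntl1a and was named after its values were seen, the response was -4.44 ± 0.74 in wild-type fish and -3.38 ± 0.77 in Gr mutants, with an interaction of 1.06 ± 1.02. Values of cry3, cry5 and nfil3-2 were 1.27 ± 0.51, 1.43 ± 0.59 and -2.47 ± 0.98, and that of cry1a 0.81 ± 0.31. In these 4 genes and in rorcb, leaving out a single library moved the unadjusted p over 0.05 (highest 0.068, 0.0905, 0.11, 0.0563 and 0.144, edgeR). The clock time at which fish were sampled is not given in the sources used here.

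**Figure D5:**
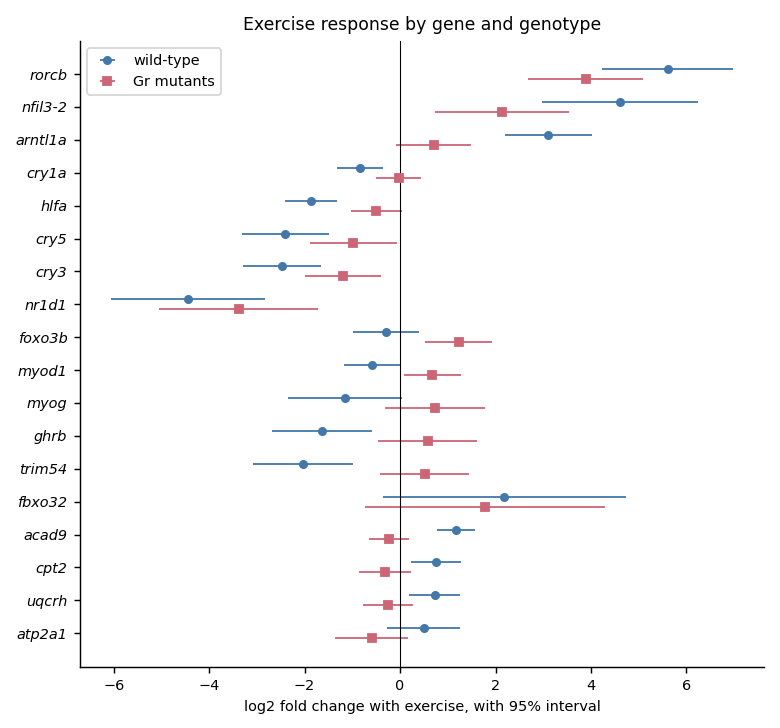
Log2 fold change with exercise, with its 95% interval, in wild-type fish (circles) and Gr mutants (squares) for 18 genes of the clock, growth, atrophy and energy metabolism. The wild-type response is the larger in the first 8, the clock genes, and the intervals of fbxo32 span over 4 log2 units in each genotype.

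Genes that glucocorticoids are known to switch had a small median interaction, which ran from -0.11 to 0.48 with 1 library left out. Of 28 tested, 13 had a value below 0, 1 had an unadjusted p under 0.05, and the median was 0.14, while the median difference of mutants from wild-type fish was -1.72 without and -1.39 with exercise. The 1 gene was foxo3b (ENSDARG00000042904), a forkhead factor upstream of atrophy genes, at 139, 87.1 and 100 CPM without and 102, 113 and 51.0 CPM with exercise in wild-type fish and 26.4, 37.7 and 26.7 CPM without and 89.9, 63.6 and 59.3 CPM with exercise in Gr mutants. Non-exercised mutants were the lowest group, and the other 3 groups overlapped (interaction 1.52 ± 0.45, unadjusted p = 0.00538, edgeR). The classic target tsc22d3 (GILZ) was at 114, 103 and 138 CPM without and 230, 264 and 142 CPM with exercise in wild-type fish and 21.6, 12.9 and 36.7 CPM without and 25.3, 31.9 and 38.9 CPM with exercise in Gr mutants, with an interaction of -0.41 ± 0.51. Levels in mutants were below those in wild-type fish at both exercise levels, and the difference in response was smaller than its standard error. The interaction of tsc22d3 ran from -0.72 to 0.048 with 1 library left out. It was -1.05 without non-exercised mutant replicates 1 and 2. For pdk4, which holds back glucose oxidation, the interaction was 0.66 ± 0.50, and for fkbp5 it was -0.79 ± 1.34. These 3 genes and nr1d1 were chosen after their values were seen.

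The genes of muscle atrophy and ubiquitin ligases had 1 of 28 at an unadjusted p under 0.05 and a median of 0.16. It was trim54, a muscle ring finger protein of the sarcomere, at 5.88, 6.18 and 5.83 CPM without and 1.35, 2.24 and 0.827 CPM with exercise in wild-type fish and 12.5, 5.91 and 5.92 CPM without and 5.202, 15.7 and 14.3 CPM with exercise in Gr mutants. All 3 exercised wild-type libraries lay below every other library, and the interaction was 2.55 ± 0.64 (unadjusted p = 0.00176, edgeR). The atrogin gene fbxo32, which the study names, was at 79.0, 10.8 and 92.4 CPM without and 166, 302 and 361 CPM with exercise in wild-type fish and 97.7, 1.80 and 6.76 CPM without and 102, 231 and 33.9 CPM with exercise in Gr mutants. Non-exercised mutants had both the lowest level of all libraries and 1 at that of other groups, and the interaction of -0.40 ± 1.59 ran from -1.24 to 2.67 with 1 library left out.

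Myogenic regulators, which drive the formation of muscle fibres, had 4 of 26 genes at an unadjusted p under 0.05. The positive ones were myod1 and myog, factors of early and late differentiation. Expression of myod1 (ENSDARG00000030110) was 53.5, 41.1 and 60.6 CPM in wild-type fish without exercise and 36.6, 39.0 and 28.1 CPM in those with exercise, and 21.0, 39.7 and 29.5 CPM without and 41.4, 40.6 and 61.9 CPM with exercise in mutants. The exercised libraries lay below the non-exercised ones in wild-type fish and above them in mutants, with no overlap in either (interaction 1.26 ± 0.39, unadjusted p = 0.00717, edgeR). Levels of myog were 3.84, 1.75 and 1.55 CPM without and 0.709, 1.36 and 1.13 CPM with exercise in wild-type fish and 2.43, 8.46 and 4.53 CPM without and 4.87, 9.08 and 12.1 CPM with exercise in Gr mutants (1.90 ± 0.73). The negative ones were id3, an inhibitor of these factors (-0.90 ± 0.35), and mef2b (-1.86 ± 0.83), which were -0.48 and -0.67 without the 2 leukocyte-rich libraries (unadjusted p = 0.23 and 0.507, edgeR). The list's median was 0.35, and 0.055 without non-exercised wild-type replicate 1.

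In the growth hormone and IGF axis, 2 of 26 genes (7.69%, against 8.39% of all genes) had an unadjusted p under 0.05, both positive, and the median was 0.16. The growth hormone receptor gene ghrb was at 196, 59.9 and 69.6 CPM without and 44.6, 17.3 and 42.0 CPM with exercise in wild-type fish and at 25.6, 37.0 and 34.9 CPM without and 64.8, 50.2 and 30.1 CPM with exercise in Gr mutants (interaction 2.22 ± 0.68). Its wild-type groups did not overlap and its mutant groups did. The IGF receptor gene igf1ra was at 5.03, 4.94 and 4.99 CPM without and 4.33, 4.97 and 4.13 CPM with exercise in wild-type fish and 3.55, 2.55 and 2.59 CPM without and 5.12, 3.63 and 5.28 CPM with exercise in Gr mutants (0.85 ± 0.33).

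A list of 28 genes was drawn from those the study names for exercise, of muscle growth and structure and of a few other roles, which it chose on these libraries, and 26 passed the filter. Most of the growth and structure genes were called by the study in wild-type fish only. Choosing a gene by its call in a single genotype favours a larger response there, in the medians and in the genes named below. The median response of the genes tested was 1.59 in wild-type fish and 0.86 in Gr mutants. Their median interaction was -0.47, with 3 negative and 3 positive values at an unadjusted p under 0.05. This median was 0.12 without non-exercised mutant replicate 3 and -1.23 without replicates 1 and 2 of that group. The lowest value was that of ogfrl1, a relative of the opioid growth factor receptor, with counts of 2, 2 and 4 without and 21, 25 and 24 with exercise in wild-type fish, and 7, 16 and 16 without and 5, 0 and 4 with exercise in Gr mutants (interaction -4.53 ± 0.95). The other negative ones were myhb, a myosin heavy chain (-2.71 ± 1.01, -0.64 without replicates 1 and 2 of non-exercised mutants), and col8a1b, a chain of collagen VIII (-1.16 ± 0.48).

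Positive ones were ghrb, greb1 (3.22 ± 1.23) and col10a1b, a chain of collagen X. Levels of col10a1b were 10.3, 14.5 and 30.9 CPM without and 38.5, 1.56 and 4.06 CPM with exercise in wild-type fish and 1.72, 0.348 and 5.46 CPM without and 11.8, 42.3 and 128 CPM with exercise in Gr mutants (4.99 ± 1.65). The collagen I genes differed between the fish of a group. Expression of col1a1a was 217, 331 and 319 CPM without and 982, 722 and 1118 CPM with exercise in wild-type fish and 311, 910 and 2459 CPM without and 2299, 2191 and 3230 CPM with exercise in Gr mutants. Replicate 3 of the non-exercised mutants lay at the level of the exercised ones, and replicate 1 at that of non-exercised wild-type fish. Interactions of col1a1a, col1a1b and col1a2 were -0.63 ± 0.77, -0.79 ± 0.72 and -0.82 ± 0.70, and 0.38, 0.23 and 0.14 without replicate 3. Without replicates 1 and 2 they were -1.64, -1.80 and -1.79 (unadjusted p = 0.00486, 0.000863 and 0.00145, edgeR). Fibroblast markers, some of them collagen genes, summed to 1356, 2874 and 6372 CPM in non-exercised mutants and moved with them. Over 36 collagen genes the median was -0.09, with a median response to exercise of 0.68 for wild-type and 0.76 for mutant fish. The median interaction was 0.31 without non-exercised mutant replicate 3 and -0.41 without replicates 1 and 2 of that group.

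Of the 18 genes that the study names as without a response to exercise, 1, mef2b, had an unadjusted p under 0.05, and the median was 0.19. The kinase gene mtor, which drives protein synthesis, was at 16.7, 17.5 and 17.5 CPM without and 18.02, 18.9 and 20.5 CPM with exercise in wild-type fish and 14.2, 19.9 and 19.9 CPM without and 24.2, 23.1 and 30.1 CPM with exercise in Gr mutants (interaction 0.37 ± 0.27, 95% interval -0.23 to 0.97). For ppargc1a, a regulator of mitochondrial genes, the 95% interval of the interaction was -1.92 to 2.96, which spans more than 4 log2 units. Among genes of fast muscle, the calcium buffer pvalb2 had an interaction of 1.99 ± 0.80, the calcium pump atp2a1 one of -1.09 ± 0.50 and ampd1, of purine nucleotide metabolism, one of 1.75 ± 0.59. The myoglobin gene mb was at 91.1, 83.6 and 63.7 CPM without and 484, 91.3 and 204 CPM with exercise in wild-type fish and 14.0, 41.3 and 150 CPM without and 104, 54.2 and 22.4 CPM with exercise in Gr mutants, with an interaction of -1.88 ± 1.11. This was -0.58 without non-exercised mutant replicate 3 and -3.04 without replicates 1 and 2 of that group.

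The other lists had at most 3 genes at an unadjusted p under 0.05 each. Median interactions were 0.31 for 16 myosin heavy chains, -0.39 for 38 genes of thin filaments and light chains (0.24 without exercised wild-type replicate 1), 0.15 for 37 genes of AMPK, PGC-1 and mTOR (-0.046 without exercised wild-type replicate 3), and -0.15 for 33 genes of the integrated stress and amino acid response (0.12 without non-exercised mutant replicate 3). They were 0.08 for 36 cell cycle genes (-0.55 without exercised mutant replicate 3) and 0.14 for 28 genes of polyamine and purine nucleotide metabolism.

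Interactions over 4 log2 units in size, 131 genes, often rested on single fish, since 54 of them had over 50% of their counts in 1 library. Of the 100 largest, 42 had their highest level in exercised mutant replicate 3. Of 17 oocyte genes listed, 7 passed the filter. Some, such as zp2.1, did so only through non-exercised wild-type replicates 2 and 3 and exercised mutant replicate 3 (49, 22 and 332 counts). Passing in this way favours a positive interaction. All 7 had one at an unadjusted p under 0.05 with exercised mutant replicate 3, and 0 without it. Their median fitted value, whose size is poorly set where groups are at or near 0, was 12.27 with that library and 3.55 without it. For 1 of them, zp3b, levels were 0.511, 3.09 and 1.43 CPM without and 0.426, 0.292 and 0.226 CPM with exercise in wild-type fish and 0.533, 0.811 and 0.833 CPM without and 0.330, 0 and 35.7 CPM with exercise in Gr mutants, and the interaction of 6.37 was 0.58 without it. Of 13 exocrine pancreas genes listed, 6 were tested. Here too some, such as ela3l, passed only through non-exercised wild-type replicate 3 and exercised mutant replicates 1 and 3 (24, 57 and 254 counts). This again favours a positive interaction. A positive interaction at an unadjusted p under 0.05 was found in 5 of the 6, against 3.31% of all genes, and in 4 without exercised mutant replicate 3. The digestive protease genes ctrb1 and prss59.1 were at 7.84, 2.48 and 53.9 and 11.97, 1.16 and 68.2 CPM in exercised mutants and at no more than 2.14 CPM in the other groups. Replicate 3 was the highest in both.

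All 10 erythrocyte genes tested had values below 0, with a median of -2.10, and of -0.57 without exercised wild-type replicate 2. The globin gene ba1 reached 277, 1392 and 112 CPM in the exercised wild-type group, against 83.5 to 285 CPM in the other 9 libraries. The transferrin receptor gene tfr1a of the same list had another pattern, at 1.11, 4.94 and 2.02 CPM without and 4.96, 13.3 and 14.9 CPM with exercise in wild-type fish and 1.303, 2.14 and 1.94 CPM without and 0.826, 1.16 and 1.25 CPM with exercise in Gr mutants (interaction -2.82 ± 0.77). Its exercised wild-type libraries lay above all others, the lowest of them just above 1 non-exercised wild-type library at 4.94 CPM. The remaining marker lists had medians of 0.35 (fast muscle), -0.57 (slow muscle), 0.85 (skin), 0.11 (hepatocyte), -0.26 (endothelium), -0.56 (fibroblast), -1.42 (adipocyte) and 0.06 (nerve). With 1 library left out, these ran from 0.07 to 0.86 for fast muscle, from 0.32 to 1.69 for skin, from -0.35 to 1.12 for hepatocyte and from -0.16 to 0.33 for nerve markers. Slow muscle markers had a median of 0.62 without exercised wild-type replicate 1, and fibroblast markers one of 0.07 without non-exercised mutant replicate 3.

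The exercise responses behind the interaction were of the same sign in most called genes. Of the 40 genes that passed in wild-type fish (0.249%), 23 rose, 37 had the same sign in mutants and 3 passed there too, namely si:dkey-184p9.7, ampd3b and rorcb. Their median size was 1.95 for the wild type and 1.03 for mutants when signed by the wild-type direction, a comparison in which genes chosen for a large wild-type value favour that genotype. Those with the opposite sign in mutants were acad9, myo5ab, a myosin motor (-1.43 ± 0.25 in wild-type fish and 0.33 ± 0.25 in Gr mutants), and si:dkey-57n24.6. The last was at 1.79, 1.44 and 1.66 CPM without and 5.96, 3.70 and 4.74 CPM with exercise in wild-type fish and 1.72, 1.85 and 1.296 CPM without and 0.991, 0.661 and 0.833 CPM with exercise in Gr mutants, and had the lowest unadjusted p among the genes named here, 6.59e-05 (edgeR; adjusted p = 0.49), with a mean of 28.8 counts.

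All 6 genes that passed in Gr mutants (0.0374%) were higher with exercise and had the same sign in wild-type fish. Expression of ampd3b, an AMP deaminase, was 55.8, 25.9 and 32.0 CPM without and 189, 225 and 204 CPM with exercise in wild-type fish and 26.7, 26.5 and 25.0 CPM without and 124, 211 and 154 CPM with exercise in Gr mutants. Its responses of 2.44 ± 0.31 and 2.64 ± 0.31 gave an interaction of 0.20 ± 0.41 (95% interval -0.69 to 1.09). The others were CABZ01086041.1 (interaction 1.13 ± 0.33), zgc:171497 (3.27 ± 1.53), ENSDARG00000102572 (1.29 ± 0.42), si:dkey-184p9.7 (-0.82 ± 0.54) and rorcb. Apart from acad9 and rorcb, the genes named in these 2 paragraphs were chosen after their values were seen. The number of genes that passed in mutants depended on the non-exercised mutant group: it was 230 without its replicate 3 and 0 without replicate 1, without replicate 2 or without both. The number in wild-type fish was between 1 (without non-exercised wild-type replicate 2) and 75 (without non-exercised mutant replicate 1) with any 1 library left out.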

How the data were processed

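RNA of white epaxial muscle from single zebrafish, 3 per group, was sequenced as single reads from unstranded libraries. The deposited counts per gene are whole read counts that the authors obtained with HTSeq 0.5.3p9 after mapping to GRCz10 with TopHat2 2.0.5, with SAMtools 0.1.18, per the submitters' processing notes. Deposited columns with the authors' own fold changes and p-values were not used. Columns shared by several tables held identical values.

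The 16056 of 31962 genes with 10 or more counts in 3 or more libraries were fitted over all 12 libraries with 1 mean per group in edgeR 4.0.16 (TMM scaling, quasi-likelihood F-test, Benjamini-Hochberg adjustment over all genes tested, R 4.3.3). The interaction, the response of each genotype and the genotype difference without exercise are contrasts of that fit. DESeq2 1.42.0 and limma 3.58.1 were alternatives, as were other scalings and filters, a replicate block and each library left out. Tests were also run on simulated counts with known interactions, and the outcome is not given here. Labels do not say whether fish of a group shared a clutch, so p-values measure the spread between these fish. Depth was 7688323 to 13894240 counts per library.

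Genes named in the text were nr3c1, the 10 with the lowest interaction p of each sign (mean of 100 or more counts, no library over 50% of scaled counts), those past DESeq2's threshold at that mean, list members with an unadjusted p under 0.05, and genes the study names; others are said to be chosen after their values were seen. The comparison and the lists were chosen with earlier results of these data known. Some symbols had been turned into dates by a spreadsheet, and copies of a gene, overlapping genes and antisense genes may share reads, since counting did not use strand.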

Additional observations from a re-analysis of the deposited data

Results flagged for a closer look

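In 14 of the genes named in the text, every exercised wild-type library lay on one side of every non-exercised one while the mutant libraries lay the opposite way. The interaction test of each had an adjusted p of 0.49 (edgeR's quasi-likelihood test), so no difference in response passed the threshold in that test. In DESeq2's Wald test, si:dkey-57n24.6, gnai2b, acad9, atp6v0ca, col19a1, chia.4 and fam184b passed an adjusted p of 0.05. Over all genes tested, 95 (0.592%) had non-overlapping groups and opposite directions. They include the second gene model of myo5ab, which is not among the 14. Many of the named genes were chosen for a low interaction p, which favours this pattern.

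Higher in exercised wild-type fish and lower in exercised mutants were si:dkey-57n24.6 (log2 interaction -2.49), tfr1a (-2.82), psd3l (-1.99), SOCS3 (3 of 3) (-1.68), gnai2b (-1.63), acad9 (-1.41), atp6v0ca (-1.35) and atp6ap2, an accessory protein of the proton pump chosen after its values were seen (-1.04). Lower in exercised wild-type fish and higher in exercised mutants were col19a1 (2.05), chia.4 (1.91), myod1 (1.26), fam184b (1.25), cpe (1.198) and phactr4a (1.05). Some of these groups were parted only narrowly. The mutant response of acad9 was -0.24 ± 0.19, with 6.77 CPM in 1 exercised and 6.78 CPM in 1 non-exercised library. In wild-type fish the response of atp6v0ca was 0.15 ± 0.20. For tfr1a, the lowest exercised wild-type library was at 4.96 CPM and the highest non-exercised one at 4.94 CPM. Groups of 3 libraries are too small for a test of single outlying samples.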

How the results depend on the processing

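The number of genes past an adjusted p of 0.05 for the interaction was 0 under every alternative of scaling, filter and library left out (leave-one-out 0 to 0), with the exception of DESeq2, which called 32. Without a filter beyond 1 count, 1232 genes had a negative interaction at an unadjusted p under 0.05, against 815. With 1 library left out, the 1347 genes at that threshold became 1049 to 1724, the 532 positive ones 389 to 656, and the 815 negative ones 631 to 1112.

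Calls of exercise within a genotype moved more. In wild-type fish the 40 genes became 333 with DESeq2, 135 with limma voom and sample quality weights, and 1 to 75 with 1 library left out. In Gr mutants the 6 genes became 277 with DESeq2 and 0 to 230 with 1 library left out. Leaving out both non-exercised mutant libraries with the most leukocyte markers, chosen after seeing the data, gave 119 and 0, with the remaining library assumed to vary like the other groups. No pairing by replicate number was seen, and groups of 3 libraries are too small to test for its absence. The correlation of same-numbered deviations lay between -0.2455 and 0.1652 and passed 0.1 in 1 of 18 pairs. That of differently numbered ones lay between -0.2308 and 0.2828. With a replicate block, 9 genes passed in wild-type fish, 0 in mutants and 0 for the interaction.

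Of 2292 recomputed interactions of single genes, 19 changed sign, in 12 genes. With 1 library left out, col1a1a ran from -1.10 to 0.38, col1a1b from -1.23 to 0.23, col1a2 from -1.24 to 0.14 and tsc22d3 from -0.72 to 0.048, each highest without non-exercised mutant replicate 3. In the same way fbxo32 ran from -1.24 to 2.67, ppargc1a from -1.04 to 1.13 and ampd3b from -0.19 to 0.41. Without both leukocyte-rich libraries the reversed values were il2rga 0.048, jak3 0.012, mpeg1.1 0.28, mpx 0.16, spi1b 0.44, fbxo32 1.99 and ppargc1a -0.037. The value of fbxo32 was 0.80 with limma voom and 0.16 with a replicate block. The cause of these changes was not tested.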
